A study of Mus musculus with 7 samples.

Results

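The genes described are 32 members of the mouse machinery that repairs DNA and checks it during replication: 12 genes of homologous recombination, 6 of the Fanconi pathway, 2 of mismatch repair, 5 of end joining, 6 of the damage checkpoint, and Parp1. They were taken by gene symbol from the 50600 genes of the deposited tables, and all 32 were found. RNA was sequenced from 4 mammary tumours of ECD transgenic mice and from 3 control mammary glands. Of the tumours, 1a and 1b are labelled adenosquamous carcinoma, tumour 3 spindle cell carcinoma and tumour 4 papillary carcinoma, so that only the adenosquamous type had more than 1 library. The series compares ECD tumours with control glands. Ecd encodes a regulator of the cell cycle. The species and promoter of the transgene, and the strain, age and genotype of the control mice, are not stated in the labels. Nor do the labels say if 1 animal gave both tumours 1a and 1b, and the p-values measure the spread between these libraries.

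Homologous recombination mends double-strand breaks by copying the sister chromatid, and it works in cells that have replicated their DNA. Brca1 with its partner Bard1 helps to prepare the broken end, and Palb2 and Brca2 then act on the prepared end. The Fanconi pathway clears crosslinks between the strands and hands the resulting break to recombination. End joining, by contrast, seals breaks directly and does not need a sister chromatid. The kinases Atr and Atm sense stalled forks and breaks and signal through Chek1 and Chek2. In people, inherited loss of BRCA1, BRCA2 or PALB2 predisposes to breast cancer.

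Library totals were 5420604 to 28638206 counts in the tumours and 5148455 to 35631305 in the glands. Genes of mitochondrial DNA took 18.34% to 32.61% of counts in tumours and 48.36% to 64.83% in glands. Levels are given as CPM, the counts scaled to a common library size of 1000000. The shallowest library was gland 1, with 1810953 counts outside mitochondrial genes. It held 750 counts over the 32 members, 17 members had under 10 counts there and 5 had none. In gland 1 a count of 0 allows a level of up to 1.06 CPM, and in gland 3 up to 0.142 CPM (a floor of 3 counts, for counting error only). Cell type markers differed between the groups too. The 6 fat cell markers summed to 22.7 to 127 CPM in tumours and 2700 to 4600 CPM in glands. The 8 skeletal muscle markers summed to 1.01 to 230 CPM in tumours, against 20.8 CPM in gland 2 and 13500 and 26600 CPM in glands 1 and 3. The 12 markers of cycling cells summed to 472 to 747 CPM in tumours and 20.9 to 48.3 CPM in glands. In such bulk samples fewer cells of a type and less RNA per cell cannot be told apart. Of the 6 squamous markers, which bear on the adenosquamous label, Krt6a was at 349 and 235 CPM in tumours 1a and 1b, against 0 to 2.32 CPM in the glands. The rest were low: Krt10 was at 0.766 and 0.952 CPM in tumours 1a and 1b, below every gland (1.32 to 5.31 CPM), Krt1 was at 0 and 0.68 CPM there, and Lor had 0 counts in every library. All 6 summed to 353 and 244 CPM in tumours 1a and 1b, so that Krt6a made up nearly all of the sum. Ivl and Sprr1b are not given singly here. Among the markers given, the label was thus matched mainly by Krt6a, and Krt10 went the other way. Of the 4 squamous markers tested in edgeR between adenosquamous tumours and glands, 2 were higher and 0 lower (adjusted p under 0.05). Of all genes tested there, 5.02% were higher. The spindle cell label was not matched by mesenchymal markers: their 6 genes summed to 279 CPM in that tumour and 377 to 1030 CPM in the glands, and Vim was at 53.6 CPM there against 128 to 243 CPM in the glands. It is therefore called the tumour labelled spindle cell.

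Several recombination, Fanconi and checkpoint genes rose in the tumours. Of the 31 members with enough counts to be tested, 10 were higher in tumours than in glands, 0 were lower and 21 did not pass. The test was edgeR's quasi-likelihood test with a Benjamini-Hochberg adjusted p under 0.05 over all genes tested. Among all 14149 genes tested, 3.90% were higher and 4.57% lower by the same rule. Every tumour lay above every gland for 17 of the 31 tested members, against 16.3% of all genes tested. The median log2 fold change of the members was 1.14, and that of all genes tested was 0.12. At an unadjusted p under 0.05, 17 members were higher and 0 lower, where 15.8% of all genes were higher. The 10 that passed were Brca1, Rad54b, Brip1, Exo1 and Blm of recombination, Fancd2 and Fanca of the Fanconi pathway, and Clspn, Topbp1 and Chek1 of the checkpoint. Exo1, Rad54b, Chek1 and Fanca had at most 17, 22, 21 and 33 counts in any gland. They had enough counts to be tested only through the tumours, where they were high, so their calls are not independent of that filter. The count of 10 rested on single libraries: it was 4, 6 and 0 without gland 1, 2 or 3. It was 5, 3, 2 and 8 without tumour 1a, 1b, the tumour labelled spindle cell or the papillary tumour. Over all genes tested, the number higher changed too, from 552 to 165, 182 and 23 without gland 1, 2 or 3. It was 369, 192, 254 and 577 without those tumours, in the same order. Without gland 3, only 23 of 14835 genes were higher and 74 lower. The median log2 fold change there was 1.21 for the members and 0.19 for all genes. At an unadjusted p under 0.05, 14 members were higher without gland 3, where 3087 genes were under that p in either direction.

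**Figure D1:**
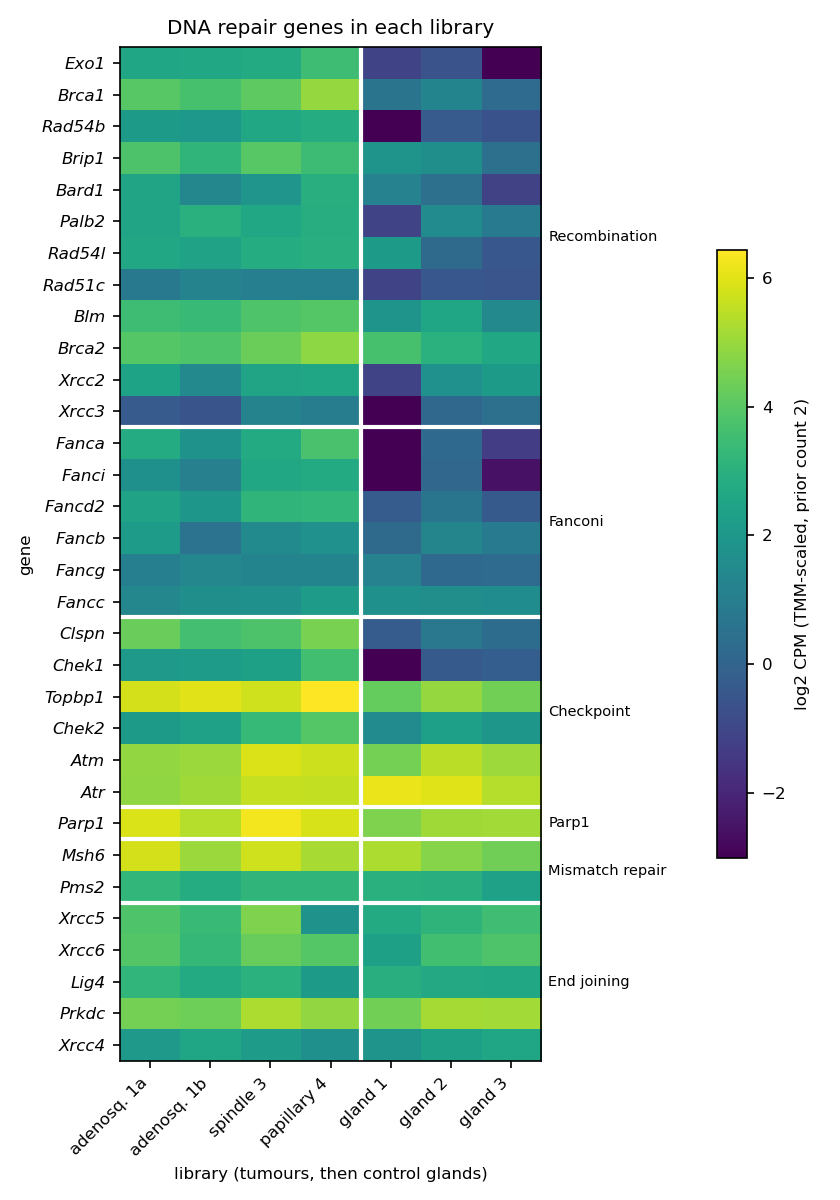
log2 CPM of the 32 members (rows, grouped by role) in each library (columns), with the 4 tumours left of the 3 glands. The colour of each cell gives log2 CPM with a prior count of 2, yellow for high and dark blue for low. Members such as Brca1, Exo1, Fanca and Clspn are lighter in every tumour than in any gland, while the colours of the end joining members overlap between the groups.

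Brca1, the ubiquitin ligase subunit that starts recombination at a broken end, rose 11.8-fold. It was at 15.7, 12.7, 17.1 and 30.7 CPM in tumours 1a, 1b, 3 and 4, against 1.41, 2.24 and 1.09 CPM in glands 1, 2 and 3. Every tumour was thus above every gland, with the papillary tumour highest (log2 3.56, SE 0.48, adjusted p = 0.0107). The call was lost without gland 3 (adjusted p = 0.0564) and held without any 1 other library. The gene (ENSMUSG00000017146) lies at chr11:101488764-101551955 on the minus strand of GRCm38. Its promoter is shown because it had the smallest p among recombination members. RefSeq places the window, from 250 bases before the start of transcription to 50 after it, at chr11:101551906-101552205 on the minus strand of GRCm38.p6. Capitals mark a CCAAT box and, near the 3′ end, GCGCCAA, the reverse complement of the E2F motif TTGGCGC.
Brca1 promoter: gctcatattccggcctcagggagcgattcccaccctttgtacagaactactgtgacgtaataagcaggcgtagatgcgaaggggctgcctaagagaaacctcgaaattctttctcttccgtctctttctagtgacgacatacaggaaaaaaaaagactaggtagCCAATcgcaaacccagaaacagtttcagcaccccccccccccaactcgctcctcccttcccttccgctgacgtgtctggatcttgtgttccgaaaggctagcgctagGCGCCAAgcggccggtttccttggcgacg

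The other recombination members that passed are enzymes that process the break or its joint molecules. Exo1, the nuclease that chews back broken ends, was at 5.70, 6.12, 6.60 and 11.3 CPM in tumours 1a, 1b, 3 and 4, against 0.354, 0.536 and 0 CPM in glands 1, 2 and 3. It had the lowest gland level per kilobase of all 32 members, and its log2 fold change was 4.64 (SE 1.04, adjusted p = 0.0384). That value rested on 1, 17 and 0 counts in the glands, and it was 6.72 without gland 2 and 3.94 without gland 3. Rad54b, a motor protein that aids strand invasion, was at 4.26, 3.95, 6.21 and 7.11 CPM in tumours 1a, 1b, 3 and 4, against 0, 0.693 and 0.521 CPM in glands 1, 2 and 3. The groups did not overlap (log2 3.43, SE 0.68, adjusted p = 0.0274). Of its exon length, 35.8% is shared with Fsbp on the same strand, so the counts of both genes are uncertain.

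Brip1, a helicase that binds Brca1, had 13.7, 8.84, 15.7 and 10.9 CPM in tumours 1a, 1b, 3 and 4, against 3.54, 3.09 and 1.28 CPM in glands 1, 2 and 3. It was higher in every tumour (log2 2.26, SE 0.46, adjusted p = 0.0293). Blm, the Bloom syndrome helicase that takes joined chromatids apart, had 11.2, 10.3, 14.2 and 15.4 CPM in tumours 1a, 1b, 3 and 4, against 3.54, 5.74 and 2.56 CPM in glands 1, 2 and 3. Its rise was the smallest of the recombination members that passed, at 3.22-fold (log2 1.69, SE 0.39, adjusted p = 0.0400). These calls were less stable than that of Brca1. Exo1 and Brip1 passed without the papillary tumour and lost the call without any 1 other library. Blm passed without gland 2 and lost the call without any 1 other library. Rad54b passed without gland 1, tumour 1a or the papillary tumour, and lost the call without any of the other 4 libraries.

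Brca2, which acts after Brca1 and Palb2 in recombination, did not pass. It was at 15.2, 14, 19.8 and 28.5 CPM in tumours 1a, 1b, 3 and 4, against 12.7, 7.91 and 6.21 CPM in glands 1, 2 and 3. The groups did not overlap, although tumour 1b was close to gland 1 (log2 1.14, SE 0.39, adjusted p = 0.110). The fitted fold change of Brca1 was thus 11.8, and that of Brca2 was 2.20. Both genes were at a similar scaled level in the tumours, with means of 19.0 ± 7.98 CPM for Brca1 and 19.4 ± 6.58 CPM for Brca2 (SD, n = 4), but per kilobase of exon Brca1 was higher, at 2.23 against 1.42 CPM. In the glands the order was the other way, with 0.185 CPM per kilobase for Brca1 and 0.656 for Brca2.

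Palb2, which bridges Brca1 and Brca2, ranged from 5.53 to 7.75 CPM in tumours and from 0.354 to 2.81 CPM in glands (adjusted p = 0.0804). Bard1, the partner without which Brca1 is unstable, ranged from 2.45 to 7.42 CPM in tumours and from 0.332 to 2.12 CPM in glands (log2 2.09, adjusted p = 0.113). Rad54l, a motor protein like Rad54b, ranged from 5.31 to 7.49 CPM in tumours and from 0.616 to 4.24 CPM in glands, and the adjusted p of 0.126 fell to 0.0399 without gland 1. Rad51c, which acts in strand exchange, ranged from 1.62 to 2.18 CPM in tumours and from 0.354 to 0.599 CPM in glands, just outside the threshold (log2 1.83, SE 0.46, adjusted p = 0.0510). In each of these 4 genes every tumour was above every gland, yet the test was not passed. Xrcc2 and Xrcc3 belong to the same family as Rad51c, and their groups overlapped. Xrcc2 was at 5.36, 2.58, 5.62 and 5.82 CPM in tumours 1a, 1b, 3 and 4, against 0.354, 3.28 and 4.22 CPM in glands 1, 2 and 3, the smallest difference of the recombination genes tested (log2 0.81, SE 0.67, adjusted p = 0.460). Xrcc3 was too low to be tested, at 0.544 to 2.17 CPM in tumours and 0 to 1.28 CPM in glands.

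**Figure D2:**
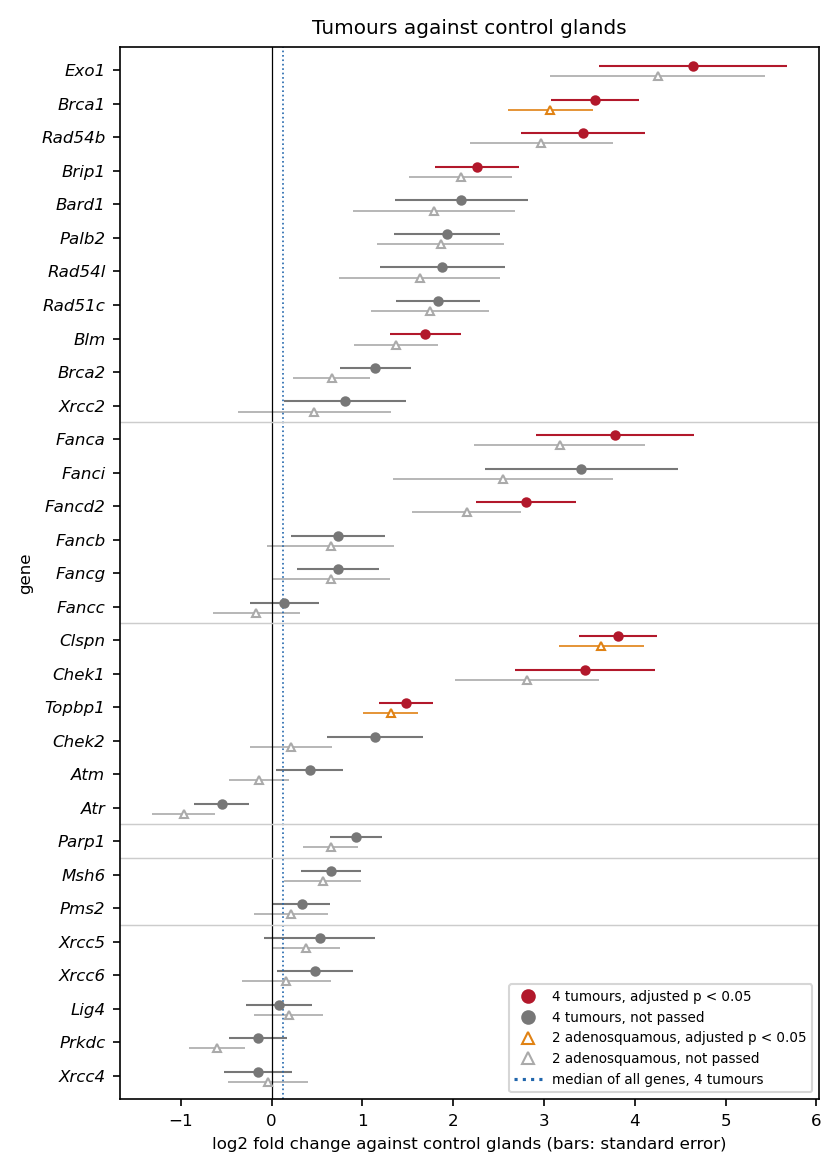
log2 fold change against the 3 glands (x axis) for the 31 tested members, grouped by role, with circles for all 4 tumours and triangles for the 2 adenosquamous tumours. Bars are standard errors, red circles and orange triangles passed at an adjusted p under 0.05, and the dotted line is the median of all genes tested for the 4 tumours, 0.12. The 10 red circles lie from 1.48 for Topbp1 to 4.64 for Exo1, and the circles of the 5 end joining genes lie from -0.15 to 0.53.

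Of the 6 Fanconi members, 2 rose, 0 fell and 4 did not pass, where 3.90% of all genes were higher and 4.57% lower. Their median log2 fold change was 1.76. Fancd2, which is ubiquitinated at a crosslink as the central step of the pathway, was at 5.28, 3.81, 8.87 and 9.41 CPM in tumours 1a, 1b, 3 and 4, against 0.707, 1.45 and 0.664 CPM in glands 1, 2 and 3. All tumours were above all glands (log2 2.80, SE 0.55, adjusted p = 0.0267). Fanca, a subunit of the core complex that carries out this ubiquitination, was at 6.89, 3.40, 6.60 and 13.2 CPM in tumours 1a, 1b, 3 and 4, against 0, 1.04 and 0.284 CPM in glands 1, 2 and 3. Its log2 fold change was 3.78 (SE 0.87, adjusted p = 0.0411). The call of Fancd2 was lost without any 1 gland and without the tumour labelled spindle cell. Fanca passed without gland 2, at a log2 of 5.09 that rested on 0 and 6 counts in glands 1 and 3. It lost the call without any 1 other library.

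The Fanca promoter, shown because Fanca had the smaller p of the matched Fanconi windows, lies at chr8:123318527-123318826 on the minus strand of GRCm38.p6 in RefSeq. Capitals mark its pair of CCAAT boxes. It holds none of the E2F letters searched.
Fanca promoter: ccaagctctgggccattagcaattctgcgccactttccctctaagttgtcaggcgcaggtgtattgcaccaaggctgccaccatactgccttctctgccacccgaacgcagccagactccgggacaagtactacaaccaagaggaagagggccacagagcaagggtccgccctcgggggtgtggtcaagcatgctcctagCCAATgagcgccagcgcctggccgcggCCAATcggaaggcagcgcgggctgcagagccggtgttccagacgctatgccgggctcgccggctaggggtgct

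Fanci, the partner that Fancd2 clamps onto DNA with, was at 2.04 to 6.72 CPM in tumours and 0 to 0.946 CPM in glands. It did not pass (log2 3.41, SE 1.06, adjusted p = 0.0879), although it did without gland 2 (log2 6.54, adjusted p = 0.0338). The value without gland 2 rested on 0 and 1 counts in glands 1 and 3. Fanci shares 16.0% of its exon length with Polg on the other strand. Because the libraries do not mark the strand, reads of such overlapping genes cannot be told apart. The same holds for Fanca and Zfp276 (10.5% of exon length) and for Rad54l and Lrrc41 (15.4%). Fancc shares 16.4% of its exon length with the antisense gene Gm16133. The other subunits of the core complex did not pass. Fancg ranged from 1.96 to 2.45 CPM in tumours and 1.04 to 2.12 CPM in glands (adjusted p = 0.318). Fancb ranged from 1.36 to 4.34 CPM in tumours and 1.06 to 2.33 CPM in glands (adjusted p = 0.390). Fancc, another core subunit, was at 2.47, 3.13, 3.15 and 4.46 CPM in tumours 1a, 1b, 3 and 4, against 3.18, 3.03 and 2.84 CPM in glands 1, 2 and 3. That is a log2 difference of 0.14 (SE 0.38, adjusted p = 0.836), the smallest of the Fanconi members.

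Clspn, the claspin adaptor that lets Atr activate Chek1 at a stalled fork, had the smallest p of all members. It was at 19.3, 12.2, 13.6 and 23.2 CPM in tumours 1a, 1b, 3 and 4, against 0.707, 1.58 and 1.14 CPM in glands 1, 2 and 3. The lowest tumour was thus far above the highest gland, and the rise was 14-fold (log2 3.81, SE 0.43, adjusted p = 0.00872). As with Brca1, the call was lost without gland 3 (adjusted p = 0.0516) and held without any 1 other library. Per kilobase, Clspn ranked 8 of the 32 members in tumours and 25 in glands, and Brca1 ranked 9 in tumours and 24 in glands.

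Clspn (ENSMUSG00000042489) lies at chr4:126556935-126593903 on the plus strand of GRCm38. Its promoter, shown as that of the checkpoint member with the smallest p, is at chr4:126556730-126557029 on the plus strand of GRCm38.p6 in RefSeq. Capitals mark a pair of ATTGG runs, each a CCAAT box on the other strand, and GCGCGAA, the reverse complement of the E2F motif TTCGCGC. In both the Brca1 and the Clspn window the E2F letters begin 21 bases after the start of transcription that RefSeq gives. For Clspn that start is not the first base of the gene position given above.
Clspn promoter: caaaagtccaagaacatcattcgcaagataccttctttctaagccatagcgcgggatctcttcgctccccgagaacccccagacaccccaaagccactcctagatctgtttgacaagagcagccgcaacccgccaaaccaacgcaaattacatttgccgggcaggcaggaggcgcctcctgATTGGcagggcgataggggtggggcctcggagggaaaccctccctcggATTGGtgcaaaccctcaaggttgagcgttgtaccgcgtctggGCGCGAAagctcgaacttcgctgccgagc

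Chek1, the kinase that Atr activates, also rose. It was at 4.09, 4.35, 4.93 and 11.6 CPM in tumours 1a, 1b, 3 and 4, against 0, 0.662 and 0.758 CPM in glands 1, 2 and 3. The papillary tumour stood apart from the other three (log2 3.45, SE 0.77, adjusted p = 0.0379). Topbp1, which switches Atr on, was at 57.3, 65.3, 54.0 and 87.0 CPM in tumours 1a, 1b, 3 and 4, against 18.4, 30.5 and 21.5 CPM in glands 1, 2 and 3. Its groups did not overlap, and its rise of 2.80-fold was the smallest of the 10 (log2 1.48, SE 0.30, adjusted p = 0.0278). Chek1 passed without the papillary tumour and lost the call without any 1 other library. Topbp1 kept the call without gland 2, tumour 1a or the papillary tumour and lost it without any of the other 4.

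The kinases that start the signal did not pass. Atr was at 29.3, 33.6, 48.5 and 48.0 CPM in tumours 1a, 1b, 3 and 4, against 71.1, 62.6 and 41.6 CPM in glands 1, 2 and 3. The groups overlapped through gland 3, and the difference was negative (log2 -0.55, SE 0.30, adjusted p = 0.260). Its sign was positive when libraries were scaled by their totals alone. Atm was at 30.0, 32.7, 61.7 and 52.7 CPM in tumours 1a, 1b, 3 and 4, against 21.9, 43.6 and 33.3 CPM in glands 1, 2 and 3 (log2 0.42, SE 0.37, adjusted p = 0.480). Both adenosquamous tumours lay within the range of the glands. Chek2, the kinase below Atm, was at 4.26, 5.17, 9.75 and 15.2 CPM in tumours 1a, 1b, 3 and 4, against 2.83, 4.82 and 3.89 CPM in glands 1, 2 and 3 (log2 1.14, SE 0.53, adjusted p = 0.198). Here too tumour 1a fell within the range of the glands.

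**Figure D3:**
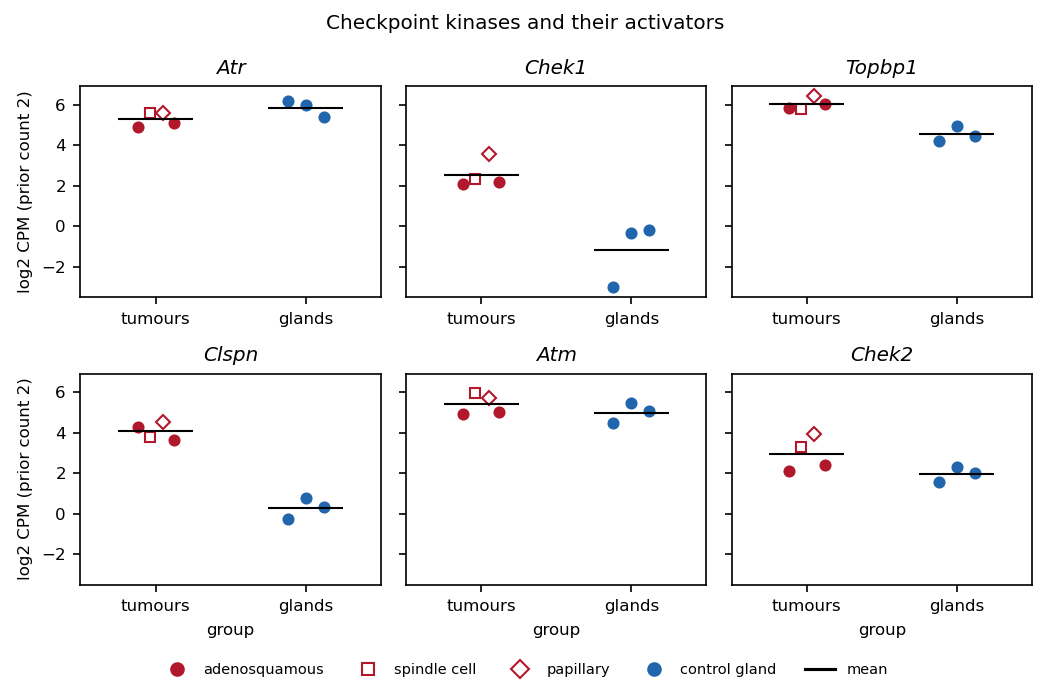
log2 CPM (prior count 2) of the 6 checkpoint members, 1 panel per gene, with the 4 tumours left of the 3 glands. Each point is 1 library, its shape gives the tumour type and the line is the mean of the group. In the panels of Clspn, Topbp1 and Chek1 every tumour is above every gland, whereas in those of Atm, Atr and Chek2 the groups overlap.

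Kinases and their targets were set side by side as ratios of counts per kilobase within a library, which do not depend on library scaling. Chek1 per Atr was 0.711, 0.660, 0.518 and 1.24 in tumours 1a, 1b, 3 and 4, against 0.0539 and 0.0930 in glands 2 and 3. Gland 1 had 0 Chek1 counts and gives no ratio. Every tumour was thus above both measured glands. Chek2 per Atm was 0.489, 0.545, 0.545 and 0.993 in tumours 1a, 1b, 3 and 4, against 0.444, 0.381 and 0.402 in glands 1, 2 and 3, so that these groups were apart by little except in the papillary tumour. Brca1 per Bard1 was 1.85, 3.43, 3.12 and 2.74 in tumours 1a, 1b, 3 and 4, against 0.442, 1.18 and 2.18 in glands 1, 2 and 3, and overlapped. The gland ratios rested on 4 to 71 counts of Brca1 and 6 to 40 of Bard1. These ratios were not tested.

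**Figure D4:**
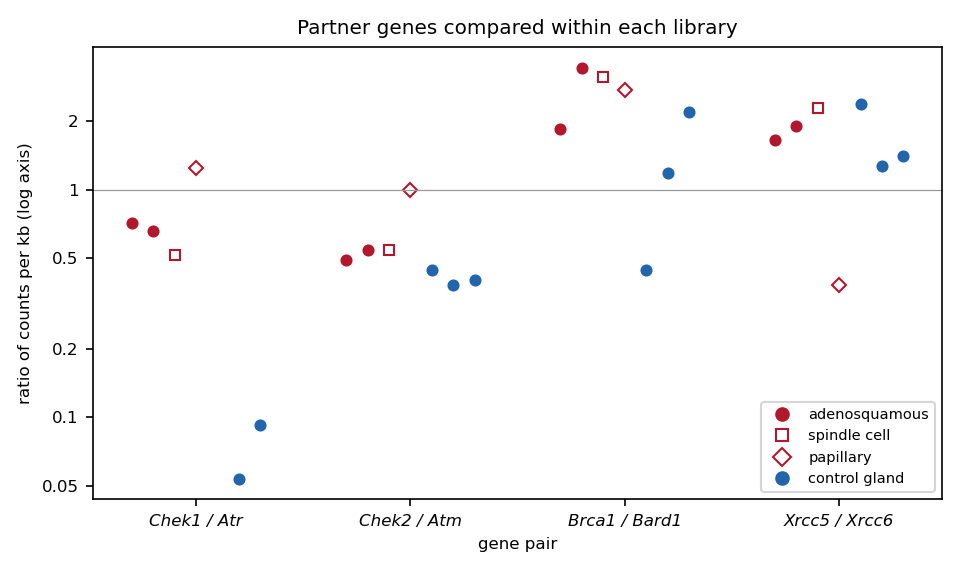
Ratio of counts per kilobase of exon for 4 pairs of partner genes in each library, on a log axis, with the 4 tumours (red) left of the glands (blue) within each pair. Chek1 per Atr has no point for gland 1, which had 0 Chek1 counts, and its tumours lie from 0.518 to 1.24 against 0.0539 and 0.0930 in the glands. For Xrcc5 per Xrcc6 the papillary tumour is alone at 0.380.

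Of the 5 end joining members 0 passed in edgeR, 0 were at an unadjusted p under 0.05, and in none did the groups separate. With 3.90% of all genes higher and 4.57% lower, a count of 0 of 5 is near the share over all genes. Their median log2 fold change was 0.08. Lig4, the ligase that seals the ends, was at 9.02, 6.67, 7.98 and 4.25 CPM in tumours 1a, 1b, 3 and 4, against 7.43, 6.30 and 6.12 CPM in glands 1, 2 and 3. Its log2 difference of 0.08 was the smallest of all members (SE 0.36, adjusted p = 0.902), and the papillary tumour was the lowest library. Prkdc, the catalytic subunit of DNA-dependent protein kinase, was at 21.9, 20.4, 38.8 and 29.5 CPM in tumours 1a, 1b, 3 and 4, against 21.2, 35.6 and 35.2 CPM in glands 1, 2 and 3 (log2 -0.15, SE 0.32, adjusted p = 0.783). Xrcc4, the scaffold of Lig4, ranged from 3.21 to 5.85 CPM in tumours and 3.54 to 5.88 CPM in glands (adjusted p = 0.823). Xrcc6, the Ku70 subunit of the ring that caps a broken end, ranged from 9.52 to 18.8 CPM in tumours and 4.95 to 14.3 CPM in glands (adjusted p = 0.482). Xrcc5, its Ku80 partner, was at 14.1, 10.3, 24.5 and 3.34 CPM in tumours 1a, 1b, 3 and 4, against 6.72, 8.67 and 11.5 CPM in glands 1, 2 and 3 (log2 0.53, SE 0.61, adjusted p = 0.599). The papillary tumour was below every other library for Xrcc5, and Xrcc5 per Xrcc6 was 0.380 there, against 1.65 to 2.28 in the other tumours and 1.27 to 2.38 in the glands.

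The Lig4 promoter is shown for comparison with those of the genes that rose. RefSeq places it at chr8:9977631-9977930 on the minus strand of GRCm38.p6, and capitals mark GCGCGAA, the reverse complement of the E2F motif TTCGCGC.
Lig4 promoter: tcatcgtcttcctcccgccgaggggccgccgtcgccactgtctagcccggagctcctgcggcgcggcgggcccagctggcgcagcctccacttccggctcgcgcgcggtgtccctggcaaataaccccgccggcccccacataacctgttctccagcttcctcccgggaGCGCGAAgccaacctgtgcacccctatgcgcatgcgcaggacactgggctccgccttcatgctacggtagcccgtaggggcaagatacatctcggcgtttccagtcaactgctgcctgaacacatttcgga

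Mismatch repair and Parp1 also did not pass. Msh6, which recognises mispaired bases, ranged from 31.8 to 56.3 CPM in tumours and 20.7 to 38.6 CPM in glands (log2 0.65, adjusted p = 0.230). Pms2, a nuclease of mismatch repair, was at 9.45, 6.94, 8.87 and 8.85 CPM in tumours 1a, 1b, 3 and 4, against 7.78, 7.6 and 5.07 CPM in glands 1, 2 and 3 (log2 0.33, SE 0.31, adjusted p = 0.509). Parp1, the sensor of strand breaks that PARP inhibitors block, was at 60.1, 41.2, 77.2 and 58.1 CPM in tumours 1a, 1b, 3 and 4, against 24.1, 33.9 and 34.7 CPM in glands 1, 2 and 3. All tumours were above all glands, but the difference did not pass (log2 0.93, SE 0.29, adjusted p = 0.0865). Per kilobase Parp1 and Msh6 were the highest members in both groups, with means of 11.2 and 10.3 CPM per kilobase in tumours, and 5.84 and 6.59 in glands.

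The promoters of the members were searched for letters known from cell cycle genes. RefSeq held a window for 27 of the 32 members; Exo1, Fancd2, Prkdc, Rad54b and Xrcc2 had none in the table. The E2F motif was searched on both strands as TTCCCGC, as TTGGCGC, as TTCGCGC and as TTGCCGC. One of these was in 19 of the 27 windows (70.4%), against 16.9% of 9981 windows of genes tested and 9.69% of all 27025 windows. They were in 6 of 7 windows of members that rose and in 13 of 19 windows of members that did not pass, Lig4, Xrcc4 and Xrcc6 included. CCAAT was in 16 of the 27 member windows (59.3%), against 38.7% of the windows of genes tested. The cell cycle homology letters TTTGAA and TTCGAA were in 2 of the 27 (7.41%), against 13.8% of the windows of genes tested. In 1 member window, matches overlapped, be they of the same motif or of different ones. A match is a description of the letters and not of a bound site.

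The other genes of these pathways were read from lists of 100 genes. Of 23 other recombination genes tested 2 rose and 0 fell, where 3.90% of all genes were higher and 4.57% lower. The list's median log2 fold change was 0.42. Eme1, a subunit of a nuclease that cuts joint molecules, was at 3.15, 2.72, 2.17 and 2.16 CPM in tumours 1a, 1b, 3 and 4, against 0, 0.315 and 0.0474 CPM in glands 1, 2 and 3 (log2 3.88, adjusted p = 0.0293). Of 18 other checkpoint genes 4 rose and 0 fell, against the same shares of all genes. H2afx, whose phosphorylated form marks breaks, averaged 15.8 ± 3.93 CPM in tumours (SD, n = 4) and 1.56 ± 0.483 CPM in glands (SD, n = 3; log2 3.41, adjusted p = 0.00887), and Cdc25c, a phosphatase that Chek1 restrains, had a log2 fold change of 4.74 (adjusted p = 0.0307). Trp53, which encodes p53, was at 21.9 to 29.3 CPM in tumours and 5.66 to 18.4 CPM in glands and did not pass (log2 1.10, adjusted p = 0.122). The call of H2afx was lost without gland 3 (adjusted p = 0.0530) and held without any 1 other library. Eme1 passed without gland 2 or the papillary tumour, and Cdc25c without the papillary tumour, and both lost the call without any 1 other library. Eme1 had 0, 10 and 1 counts in glands 1, 2 and 3, and its log2 fold change was 5.71 without gland 2. Cdc25c had 0, 1 and 5 counts there, and its log2 fold change was 6.49 without gland 3 and 4.11 without gland 2. Eme1 and Cdc25c too had enough counts to be tested only through the tumours.

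Of 15 base excision repair genes 3 rose, where 3.90% of all genes were higher. Among them were the ligase Lig1 (log2 2.46, adjusted p = 0.0151) and the flap nuclease Fen1 (log2 4.33, adjusted p = 0.0438). Both also act when replicated fragments of DNA are joined, Fen1 by cutting flaps and Lig1 by sealing. Fen1 was at 93.0 CPM in the papillary tumour, 13.2 to 14.3 CPM in the other tumours and 0.354 to 2.49 CPM in the glands. Of 15 nucleotide excision repair genes 1 rose, the damage sensor Ddb1 (log2 1.22, adjusted p = 0.0379), a count near the 3.90% of all genes that were higher. Lig1 lost the call without gland 1 or gland 3, and Ddb1 lost it without any 1 library. Fen1 passed without the papillary tumour, at a log2 of 3.01, and lost the call without any 1 other library. In edgeR 0 passed of 11 other Fanconi genes (2 at an unadjusted p under 0.05), of 5 other mismatch repair genes (1) and of 8 other end joining genes (0), where 15.8% of all genes were higher and 13.1% lower at that p. The gene with the smallest p was Rfwd3 among the other Fanconi genes (adjusted p = 0.0558) and the polymerase Poll among the other end joining genes (adjusted p = 0.214).

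**Figure D5:**
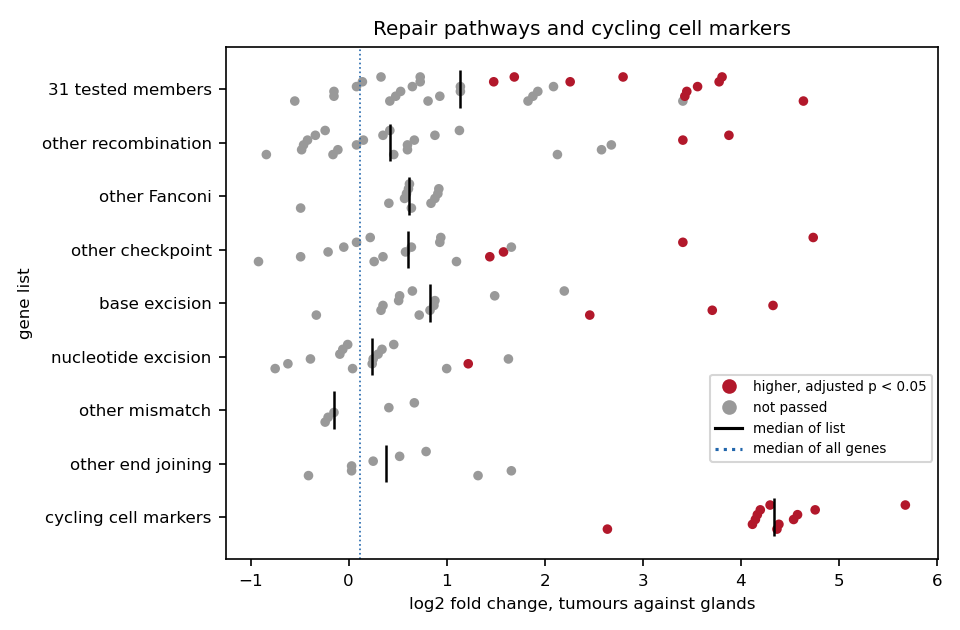
log2 fold change of tumours against glands for each tested gene of the members, of 7 other repair lists and of 12 markers of cycling cells. Red points passed, black bars are the medians of the lists and the dotted line is the median of all genes tested. The medians are 1.14 for the members, from -0.15 to 0.83 for the other repair lists, and 4.33 for the markers of cycling cells.

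All 12 markers of cycling cells rose, with a median log2 fold change of 4.33. Expressed per 100 counts of these 12 markers, 25 of the 32 members had all 4 tumours below all 3 glands, as did 88.9% of all genes tested. Brca1 had 2.30 to 4.44 counts per 100 marker counts in tumours and 4.63 to 6.78 in glands, and Atr had 4.74 to 7.12 in tumours and 130.0 to 341 in glands. In Chek1, Clspn, Exo1, Fanca and Fanci the groups overlapped. Rad54b and Xrcc3 overlapped through a count of 0 in gland 1 alone, and their tumours were below glands 2 and 3. Clspn had 1.82 to 3.36 in tumours and 3.26 to 5.15 in glands. The markers summed to only 59 counts in gland 1, and the part of cycling cells in the differences between groups was not tested.

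Among the tumours, both adenosquamous libraries tended to be lower than the others. Tumours 1a and 1b were both below the tumour labelled spindle cell and the papillary tumour for 17 of 32 members, against 25.9% of 14149 genes, and both above for 0, against 23.7%. In edgeR 0 of the 32 members and 0.00% of 14101 genes passed between the adenosquamous and the other tumours; DESeq2 and limma-voom also passed 0 members, although DESeq2 passed 1385 genes. At an unadjusted p under 0.05, 4 members were lower in the adenosquamous tumours, where 5.00% of all genes were: Chek2 (log2 -1.40, SE 0.44), Atm (-0.85, SE 0.28), Fanci (-1.28, SE 0.48) and Xrcc3 (-1.68, SE 0.61), with adjusted p of 0.244, 0.255, 0.307 and 0.294. The median of the members was -0.45, and that of all genes tested was -0.07. Some marker lists were higher in tumours 1a and 1b, opposite to the members. Mesenchymal markers summed to 6310 and 2090 CPM there against 279 and 344 CPM in the other tumours, and immune markers to 329 and 379 against 42.4 and 68.4 CPM. Basal markers (1720 and 781 against 421 and 29.3 CPM) and endothelial markers (211 and 105 against 56.4 and 32.5 CPM) were higher there too. Luminal markers were lower there, at 293 and 698 against 1000 and 1850 CPM. Markers of cycling cells were also lower, at 617 and 472 CPM against 747 and 690 CPM, with a median log2 difference of -0.38. The part of these markers in the order of the members was not tested.

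Set against the glands alone, the adenosquamous tumours showed 3 higher members of 31 tested and 0 lower, where 5.02% of 14708 genes were higher. The same glands serve here as in the comparison of all tumours. These were Clspn (log2 3.63, SE 0.47, adjusted p = 0.0189), Brca1 (log2 3.07, SE 0.47, adjusted p = 0.0223) and Topbp1 (log2 1.31, SE 0.30, adjusted p = 0.0467). The call of Topbp1 was also lost with a mean CPM filter (adjusted p = 0.0503) and in 1 model with all 4 groups (adjusted p = 0.0568). The median of the members was 0.66, and that of all genes tested was -0.04. At an unadjusted p under 0.05, 12 were higher and 1 lower, where 14.7% of all genes were higher and 15.3% lower. The lower one was Atr at -0.97 (SE 0.35, adjusted p = 0.128). Without gland 3, 0 members passed in edgeR, as did 0 of all 14034 genes tested. Without gland 1 the count was 1 (Clspn), where 319 of 16448 genes were higher. Without gland 2 it was 6, where 643 of 13845 genes were higher. Without tumour 1a or tumour 1b only 1 adenosquamous library was left. The median of the members was then 0.71 or 1.12, and that of all genes -0.12 or -0.09.

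The remaining types had 1 library each, so their differences have no replicate check. In the tumour labelled spindle cell, 20 of 32 members were at least 2-fold above the mean of the glands and 0 at least 2-fold below, where 15.7% and 20.2% of all genes were. Xrcc5 and Parp1 were among the 20. In the papillary tumour 18 were at least 2-fold above and 1, Xrcc5, below, where 20.0% and 23.9% of all genes were. Among the 4 tumours the papillary one was highest for 16 members, Brca1, Brca2, Chek1 and Chek2 among them. Tumour 1b was the lowest for 19. The shares of all genes highest in the papillary tumour or lowest in tumour 1b were not worked out. These 2 counts therefore do not show a trait of the members. The papillary tumour was also the lowest of all 7 libraries for Lig4, Xrcc4 and Xrcc5, all of end joining, as it was for 18.6% of all genes.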

How the data were processed

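Total RNA from control glands or central tumour pieces was made into TruSeq RNA v2 libraries, which do not mark the strand, and read in pairs on a HiSeq instrument, per the labels' protocols. STAR 2.5, RSEM 1.3, limma and GRCm38 are named in the submitters' processing notes, without their roles. The deposited column is headed TPM, but its sums differ between libraries (5148455 to 35631305 once rounded) and 2.34% to 6.14% of values are not whole, so the values were taken to be the authors' expected counts, and each was rounded to a whole number. Values that were not whole occurred for Atr, Rad54b and Pms2 among the members. Positions and exon lengths are from GENCODE M21, which held 50376 of the 50600 identifiers and all 32 members.

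Genes were kept by filterByExpr (minimum count 10, minimum total 15) and tested two-sided with edgeR 4.0.16 in R 4.3.3 (quasi-likelihood F test, TMM factors 0.551 to 1.605, Benjamini-Hochberg over all genes tested, threshold 0.05). Each SE is the absolute log2 fold change over the square root of F. CPM used the TMM-scaled sizes, and log2 CPM a prior count of 2. Single libraries were set against the mean of the glands with 0.5 CPM added and a threshold of 2-fold. The 3 comparisons were all tumours against glands, adenosquamous tumours against the same glands, and adenosquamous against the other 2 tumours. The alternatives were DESeq2 1.42.0, limma-voom (limma 3.58.1), other scalings and filters, 1 model with all 4 groups, each library left out, and gland 2, the one with least muscle RNA, as the only control.

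The members, lists, tests and alternatives were chosen with earlier results of these data known. All members are named, with values by library for those that passed, for Brca1, Brca2, Parp1, Prkdc, Atm, Atr, Chek1, Chek2 and for the member with the smallest difference in each role. Of each other repair list the 2 genes that passed with the smallest p are named, or 1 if none passed, with Trp53 added; some genes that this rule takes are not reported here. In the lists 1 symbol, Shfm1, was not matched. In a simulation of the tumour comparison over 14149 genes, 17% of genes given a log2 change of 2 were recovered and 77% of those given 4. Smaller changes were thus often missed in it. Only 200 genes were changed in the simulation, while 552 were higher and 647 lower in the data, so these rates may differ from those in the data. No libraries were identical, and the chi-square per degree of freedom within a group was 85.0 or more, with 107.9 between tumours 1a and 1b.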

Additional observations from a re-analysis of the deposited data

Results flagged for a closer look

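In 3 members 1 tumour stood apart from the other three by more than Dixon's 95% limit for 4 samples, which chance alone exceeds in about 1 of 20 groups. All 32 members were examined. Chek1 was at 11.6 CPM in the papillary tumour and 4.09 to 4.93 CPM in the others. Exo1 was at 11.3 CPM in the papillary tumour and 5.70 to 6.60 CPM in the others. Xrcc2 was at 2.58 CPM in adenosquamous tumour 1b and 5.36 to 5.82 CPM in the others.

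In 2 of the 32 members, both end joining genes, the papillary tumour lay below every gland while the tumour labelled spindle cell lay above every gland. With 1 library each, this difference was not tested. The share of all genes with this order was not worked out, so the count does not show a trait of end joining. Lig4 was at 4.25 CPM in the papillary tumour and 7.98 CPM in the tumour labelled spindle cell, against 6.12 to 7.43 CPM in the glands. Xrcc5 was at 3.34 CPM in the papillary tumour and 24.5 CPM in the tumour labelled spindle cell, against 6.72 to 11.5 CPM in the glands.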

How the results depend on the processing

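For tumours against glands, main values were 10 members higher, 0 lower, 1199 genes passed and a median member log2 fold change of 1.14. DESeq2 gave 17 members and 3403 genes. Library totals without scaling factors gave 20 members, 3954 genes and a median of 2.10; this moved the median of all genes by 0.97, and 91.4% of its calls were higher, against 46% in the main analysis. No filter gave 6 members. Gland 2 as the only control gave 0 members and 0 genes in edgeR (9 members and 1655 genes at an unadjusted p under 0.05). Leaving out each library gave 0 to 8 members and 97 to 1351 genes. The count of members was 10 or 11 with limma-voom, without mitochondrial genes, and with upper-quartile or median-ratio scaling, and 9 with a mean CPM filter. No member was lower in any of these settings.

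For adenosquamous tumours against glands, main values were 3 members and 1526 genes. DESeq2 gave 10 members and 3562 genes, limma-voom 8 members, library totals 16 members and 3344 genes, and no filter 6 members and 2521 genes. Leaving out each library gave 0 to 6 members and 0 to 1498 genes. Between adenosquamous and other tumours, 0 genes passed in edgeR (2285 at an unadjusted p under 0.05), against 1385 with DESeq2 and 2472 without a filter. The cause of these changes was not tested.

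No called value changed sign. No paired analysis was possible because the labels pair no tumour with a gland. In gland 1, the shallowest library, a count of 0 allows a level of up to 1.06 CPM, which limits the members with few counts in glands.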

Other observations

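Among the genes tested, the nearest to Xrcc5 on chromosome 1 were Pecr on one side and Smarcal1 on the other. Genes that were not tested were not looked at. Pecr was at 2.65 CPM in the papillary tumour, against 2.04, 1.77 and 11 CPM in tumours 1a, 1b and 3. Smarcal1 was at 9.16 CPM in the papillary tumour, against 7.92, 8.43 and 8.57 CPM in tumours 1a, 1b and 3. Unlike Xrcc5, neither was lowest in the papillary tumour among the 4. Further along on the Smarcal1 side, Igfbp2 was lowest there, at 2.13 CPM against 5.19, 6.94 and 73.9 CPM in tumours 1a, 1b and 3. Rpl37a and Igfbp5 were not, at 196 and 244 CPM there against 44.7 and 113 CPM in tumour 1a. These genes were looked at after the value of Xrcc5 was seen.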
